A study of Mus musculus with 7 samples.

Results

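The 10 genes described here encode hepatocyte carriers of bile acids, organic anions and phospholipid, for uptake from blood and export to bile or blood. They were taken by symbol, with earlier results of these data known, and comprised 5 uptake carriers (Slc10a1, Slco1a1, Slco1a4, Slco1b2 and Slco2b1) and 5 export pumps (Abcb11, Abcb4, Abcc2, Abcc3 and Abcc4). They are 10 of 19057 gene symbols on the array and were measured by 14 of its 45281 probes. Whole liver was taken 12 h after partial hepatectomy (PHx), in which part of the organ is cut away and the remnant grows back, and its total RNA was measured on Illumina bead arrays of 1 colour, with an array for each sample. The 4 samples labelled LTBR KO (KO) lacked the lymphotoxin beta receptor, a receptor of the tumour necrosis factor family, and the 3 samples labelled WT were wild type. All mice were C57BL/6 and all had been operated on, so differences from before and after surgery cannot be told apart. Age, sex and the construct behind the KO allele are not given in the sources used here. The comparison asked how the transporter genes differed with loss of the receptor in regenerating liver, for uptake and for export.

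Bile acids circulate between liver and gut. On the blood side of the hepatocyte they enter through the sodium-dependent carrier NTCP, encoded by Slc10a1, and through sodium-independent organic anion transporting polypeptides (OATPs), encoded by Slco genes, which also take up bilirubin, hormones and drugs. On the bile side, ATP-driven pumps secrete bile salts (BSEP, encoded by Abcb11), phospholipid (MDR2, Abcb4) and conjugated anions such as bilirubin glucuronide (MRP2, Abcc2). MRP3 (Abcc3) and MRP4 (Abcc4) return conjugates to the blood and are known as an overflow route in cholestasis. Bile acids acting through the nuclear receptor FXR, encoded by Nr1h4, are known to raise Abcb11 and to restrain Slc10a1.

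The FXR element is an inverted repeat of AGGTCA with 1 base between the copies. Promoters of the 4 genes shown here were chosen because Abcb11, Slco1a4 and Slco2b1 had the largest differences among the transporters, and Slco1b2 had a like sign at all its probes above background. Each runs from 250 bases before to 50 bases after the start site of that promoter, from RefSeq of GRCm38.p6. All are written 5′ to 3′ in the direction of the gene. For Slco1b2 and Slco1a4 this start site lies inside the gene span, which begins at 141629452 and 141856284 respectively. Capitals mark AGGTCANTGACCT found on either strand with up to 1 mismatch, which in Abcb11 and Slco1b2 contains an exact AGGTCA on the opposite strand. The Abcb11 promoter is chr2:69342567-69342866, minus strand. That of Slco1b2 is chr6:141629268-141629567, plus strand, that of Slco1a4 is chr6:141856171-141856470, minus strand, and the outermost of 3 for Slco2b1 is chr7:99711291-99711590, minus strand.
Abcb11: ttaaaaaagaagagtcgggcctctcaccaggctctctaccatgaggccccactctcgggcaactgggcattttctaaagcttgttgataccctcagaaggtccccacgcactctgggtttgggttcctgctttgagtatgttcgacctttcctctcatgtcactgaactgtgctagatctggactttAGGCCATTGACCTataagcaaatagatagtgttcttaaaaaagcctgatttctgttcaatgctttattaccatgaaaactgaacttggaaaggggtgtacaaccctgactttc
Slco1b2: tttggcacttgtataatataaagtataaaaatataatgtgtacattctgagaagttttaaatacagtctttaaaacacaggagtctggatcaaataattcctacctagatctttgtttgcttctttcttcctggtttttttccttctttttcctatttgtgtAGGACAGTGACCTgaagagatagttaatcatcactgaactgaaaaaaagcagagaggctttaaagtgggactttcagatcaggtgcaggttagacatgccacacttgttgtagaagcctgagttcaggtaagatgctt
Slco1a4: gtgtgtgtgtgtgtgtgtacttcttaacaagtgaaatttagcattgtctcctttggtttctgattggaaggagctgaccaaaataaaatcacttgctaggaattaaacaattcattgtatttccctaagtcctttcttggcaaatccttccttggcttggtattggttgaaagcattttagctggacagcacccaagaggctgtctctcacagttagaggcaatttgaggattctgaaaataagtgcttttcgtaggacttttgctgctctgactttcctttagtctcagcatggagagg
Slco2b1: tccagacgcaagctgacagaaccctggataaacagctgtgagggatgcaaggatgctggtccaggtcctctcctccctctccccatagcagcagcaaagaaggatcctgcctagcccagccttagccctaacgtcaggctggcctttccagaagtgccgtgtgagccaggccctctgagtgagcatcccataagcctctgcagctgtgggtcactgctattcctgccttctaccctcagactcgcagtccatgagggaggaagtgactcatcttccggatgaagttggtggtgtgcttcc

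Of the 10 genes, 9 had an entry in the promoter table, with 13 promoters in all. The inverted repeat with up to 1 mismatch occurred in 2 of the 9 genes, against 0.0822% of the 32841 promoters of the same length. In Abcb11 it began 63 bases, and in Slco1b2 88 bases, before the start site of the promoter, each with 1 mismatch. The single AGGTCA was found in 5 of the 9 genes and in 16.3% of all promoters. The antioxidant response element TGACNNNGC, bound by NRF2, was found in Abcc2 and Abcc4 and in 12.4% of all promoters. The sequence GTTAAT, part of the element bound by HNF1, was found in Slco1b2 alone among these genes and in 7.1% of all promoters. Genes were counted if any of their promoters had a match, whereas the shares are of single promoters. A match describes the letters in this window and not a bound site.

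On every array the deposited intensities ran from 72.6 to 30878 with a median of 91.1, and an intensity of 93.5 was taken as the floor above which a probe was read as measured. After background correction the floor lay at 4.98 on the log2 scale. All 10 transporter genes passed the filter, and 12 of their 14 probes exceeded the floor on 3 or more arrays. Of the 10 genes, 8 were above the floor on all 7 arrays, and Slc10a1 (4 arrays) and Slco1a1 (5 arrays) were not. In the fit 13281 genes or unnamed probes were tested, with a median standard error (SE) of 0.18 for a log2 difference, and the number of arrays limits the precision. KO replicate 3 and WT replicate 3 stood apart from the other arrays of their groups on the second principal component, which held 26.1% of the variance. On the first, which held 31.0%, they were the arrays of their groups nearest the other group. Scores there were -22.7, -16.5, -4.3 and -14.4 in KO and 26.9, 28.0 and 2.9 in WT. The targeted gene Ltbr was lower in every KO than in every WT sample (log2 difference -1.04, SE 0.20), with an adjusted p of 0.088 by limma. Whether its probe lies in the deleted stretch is not given in the sources used here, and a probe outside that stretch would not check the labels.

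At a Benjamini-Hochberg adjusted p under 0.05 in limma, 0 of the 10 transporter genes differed between KO and WT, where 0.0678% of all genes tested passed (9 of 13281), 0.00753% higher and 0.0602% lower in KO. At an unadjusted p under 0.05 there were 5 of the 10, with Slco2b1 higher and Slco1a4, Slco1b2, Abcb11 and Abcc2 lower in KO, beside 14.7% of all genes (8.2% higher and 6.48% lower). The 4 KO values lay all on one side of the 3 WT values for 4 of the 10, beside 13% of all genes tested. These were Slco2b1 above, beside 7.59% of all genes, and Slco1a4, Slco1b2 and Abcb11 below, beside 5.45%. In whole tissue, fewer cells of a type and less RNA per cell cannot be told apart. Positive log2 differences here are higher in KO, and because of the offset of 16 added in the background correction they understate the change of dim genes.

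**Figure D1:**
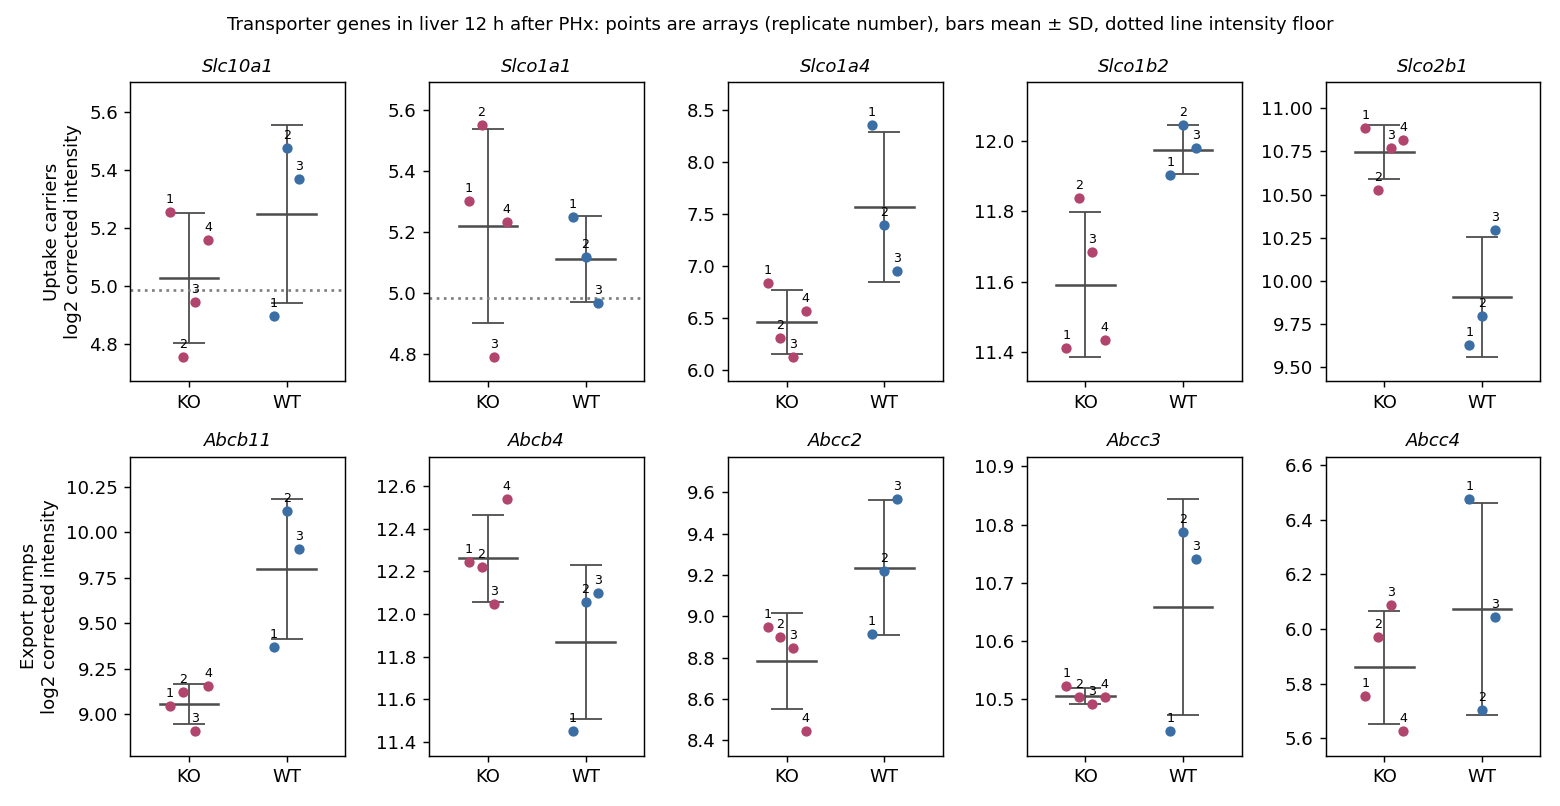
Log2 background-corrected intensity of each of the 10 transporter genes in the 4 KO and 3 WT arrays, with replicate numbers, group mean and SD (bars), and the intensity floor of 4.98 (dotted line, where in range). The vertical scales differ between genes. KO and WT points do not overlap for Slco1a4, Slco1b2, Slco2b1 and Abcb11, and points of Slc10a1 and Slco1a1 straddle the floor.

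Among the uptake carriers, Slc10a1 (chromosome 12), the carrier of conjugated bile acids, was measured by 1 probe close to background. Its deposited intensity was 99.96, 88.8, 92.6 and 97.5 in KO replicates 1 to 4, against 91.6, 106 and 103 in WT replicates 1 to 3. The groups overlapped, and 2 of the 4 KO and 2 of the 3 WT arrays were above the floor. The log2 difference of -0.22 (SE 0.19) had a 95% interval of -0.64 to 0.20 and an adjusted p of 0.65 in limma. It was -0.40 without WT replicate 1 and -0.11 without WT replicate 2. With the probe this near the floor, the interval describes the probe's reading rather than the range of change the transcript could have had.

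Slco1a1, an OATP with a broad range of substrates, was likewise dim, with intensities of 101, 109, 89.5 and 99.5 in KO and 99.9, 96.5 and 93.1 in WT. The KO values spanned the WT values, and 3 of 4 KO and 2 of 3 WT arrays were above the floor. Its log2 difference was 0.11 (SE 0.19), with a 95% interval of -0.31 to 0.53 and an adjusted p of 0.85 in limma, and it was -0.0026 without KO replicate 2 and 0.25 without KO replicate 3.

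Slco1a4, an OATP that also carries bile acids and cardiac glycosides, had the largest difference of the 10 in either direction in the main fit with all arrays. Its intensity was 177, 141, 132 and 157 in KO, against 390.4, 231 and 186 in WT. Every KO array was below every WT array, and WT replicate 1 was well above the other WT arrays. On the log2 scale the means were 6.46 ± 0.31 (SD, n = 4) in KO and 7.57 ± 0.72 (SD, n = 3) in WT. The log2 difference was -1.11 (SE 0.29), a ratio of 2.15, with a 95% interval of -1.75 to -0.46 and an adjusted p of 0.14 in limma. Without WT replicate 1 it was -0.71, smaller in size than that of Abcb11 (-0.96), and without WT replicate 3 it was -1.42. Without background correction it was -0.76, against 0.80 for Slco2b1, so its place as the largest depended on the setting. The second Slco1a4 probe was above the floor on 0 arrays and gave no measure.

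Slco1b2 encodes the mouse OATP of the human OATP1B type, a liver-specific carrier of bilirubin and unconjugated bile acids. At its brightest probe the intensity was 2783, 3717, 3354 and 2829 in KO and 3889, 4283 and 4097 in WT. The groups did not overlap, the gap between the highest KO and the lowest WT array being small. The log2 means were 11.59 ± 0.21 (SD, n = 4) in KO and 11.97 ± 0.07 (SD, n = 3) in WT, a difference of -0.38 (SE 0.16) with an adjusted p of 0.31 in limma. A second, dimmer probe of the same transcript showed a larger difference. Its intensity was 317, 398, 263 and 312 in KO and 569, 622 and 439.8 in WT, again without overlap. The log2 difference at that probe was -0.89 (SE 0.21), with an adjusted p of 0.10 over all kept probes in limma. The remaining probe was above the floor on 0 arrays.

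Slco2b1, an OATP that carries sulphated steroids and many drugs, was the only uptake carrier above the floor on all arrays whose KO mean was the higher. Its intensity was 1952, 1535, 1808 and 1866 in KO, against 853, 950.5 and 1320.2 in WT. Every KO array was above every WT array. The log2 means were 10.75 ± 0.16 (SD, n = 4) in KO and 9.91 ± 0.35 (SD, n = 3) in WT. The log2 difference was 0.84 (SE 0.19), a ratio of 1.79, with a 95% interval of 0.43 to 1.26 and an adjusted p of 0.11 in limma. Of the 10 transporters it had the smallest p, at rank 103 of 13281 genes tested.

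Markers of Kupffer cells and macrophages had a positive median, the sign of the Slco2b1 difference. Of 14 such markers tested, 13 had positive log2 differences, the median being 0.41 and none passing the threshold, beside a median of 0.03 over all genes tested. Their summed intensity was 4207 to 6714 in KO and 3201 to 4338 in WT, and Cd5l was not above the floor. The marker of smallest p, the scavenger receptor gene Marco, differed by 1.71 (SE 0.35, adjusted p = 0.088). The markers' mean log2 deviation from their WT mean was 0.28, 0.44, 0.27 and 0.91 in KO and 0.22, 0.05 and -0.28 in WT. WT replicate 1 thus lay close to KO replicates 1 and 3. For Slco2b1 the deviation was 0.98, 0.62, 0.86 and 0.91 in KO and -0.28, -0.11 and 0.39 in WT. Within WT, Slco2b1 thus ran in the reverse order of the markers. The part of Kupffer cells and macrophages in the Slco2b1 value was not tested. Hepatocyte markers, which bear on all 10 genes, had 15 of 17 below 0 and a median of -0.16, with 0 past the threshold. Their summed intensity was 171117 to 189983 in KO and 186476 to 191477 in WT, all 17 having passed the filter. Their mean log2 deviation was -0.17, -0.10, -0.24 and 0.01 in KO and 0.12, 0.13 and -0.25 in WT. On this score the lowest array was WT replicate 3, whereas the lowest summed intensity was in a KO array. The score gives dim markers the same weight as bright ones. In WT replicate 3 Alb, Fgb and Tat were at 5.92, 4.91 and 4.92 on the log2 scale, against WT means of 7.13, 5.43 and 5.65. The part of hepatocytes in the lower transporter values was not tested.

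The genes Slco1b2, Slco1a4 and Slco1a1 lie next to each other in the order of tested genes on chromosome 6, the chromosome of Ltbr. They stand 60 to 62 tested genes and 16.3 to 16.6 Mb from it in GRCm38.p6. Slco1a1, at the far end of this run, differed by 0.11 (SE 0.19), opposite in sign to Slco1b2 and Slco1a4. Its probe was close to the floor and its sign turned without KO replicate 2, so it gives no firm sign. Of the 3 tested genes on the far side of the cluster, in order outwards, Pyroxd1 differed by 0.06 (SE 0.22), Golt1b by 0.32 (SE 0.17) and Gys2, which encodes liver glycogen synthase, by -0.72 (SE 0.19). Of the 3 on the near side, Aebp2, which encodes a Polycomb partner protein, differed by 0.63 (SE 0.23), Plekha5 by -0.27 (SE 0.16) and Plcz1 by 0.10 (SE 0.17). None of these neighbours passed in limma, the lowest adjusted p being 0.14 for Gys2, and they had both signs. What the shared chromosome contributes was not tested.

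Among the export pumps, Abcb11 (chromosome 2), the pump that sets the rate of bile salt secretion and whose promoter carries the inverted repeat shown above, had the largest difference. Its intensity was 590.2, 619.5, 542 and 631 in KO, against 723, 1172 and 1022 in WT. Every KO array was below every WT array, the KO arrays lying close together and WT replicate 1 lying below the other WT arrays. The log2 means were 9.06 ± 0.11 (SD, n = 4) in KO and 9.80 ± 0.39 (SD, n = 3) in WT. The log2 difference was -0.74 (SE 0.19), a ratio of 1.67, with a 95% interval of -1.16 to -0.32 and an adjusted p of 0.13 in limma. It was -0.96 without WT replicate 1 and -0.58 without WT replicate 2.

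Abcb4, the phospholipid floppase of the canalicular membrane, was the only export pump with a higher KO mean. Its intensity was 4908, 4831, 4299 and 6017 in KO and 2859.8, 4328 and 4442 in WT. The groups overlapped, KO replicate 3 lying below WT replicates 2 and 3. The log2 difference of 0.39 (SE 0.20) had a 95% interval of -0.04 to 0.83 and an adjusted p of 0.39 in limma. Without WT replicate 1, the lowest array, it was 0.18. Abcb11 and Abcb4, whose products deliver the bile salt and the phospholipid of bile, thus had estimates of opposite sign, and the difference between the genes was not tested.

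Abcc2, the canalicular pump of bilirubin conjugates and glutathione, was lower in mean at both its probes. At the brighter probe the intensity was 555, 539, 523 and 409.9 in KO and 545, 658 and 821 in WT. The groups overlapped, since WT replicate 1 lay below KO replicate 1. The log2 difference was -0.45 (SE 0.20, adjusted p = 0.32 in limma) at this probe and -0.69 (SE 0.25, adjusted p = 0.23 over all kept probes) at the dimmer one. Without WT replicate 3, the highest array, the first of these was -0.28.

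The blood-side pumps Abcc3 and Abcc4 overlapped between groups. Abcc3, which exports glucuronides, had intensities of 1533, 1514, 1501 and 1514 in KO and 1456, 1829 and 1774 in WT. The KO arrays were nearly equal and lay between WT replicate 1 and the other WT arrays. The log2 difference was -0.15 (SE 0.15), with a 95% interval of -0.49 to 0.18 and an adjusted p of 0.70 in limma. It was -0.26 without WT replicate 1 and -0.09 without WT replicate 2. Abcc4, which exports bile acids together with glutathione and also cyclic nucleotides, was dim, at 116, 124, 129.8 and 111 in KO and 151, 114 and 128 in WT. Its log2 difference of -0.21 (SE 0.20) had a 95% interval of -0.66 to 0.23 and an adjusted p of 0.68, and it was -0.01 without WT replicate 1 and -0.40 without WT replicate 2.

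**Figure D2:**
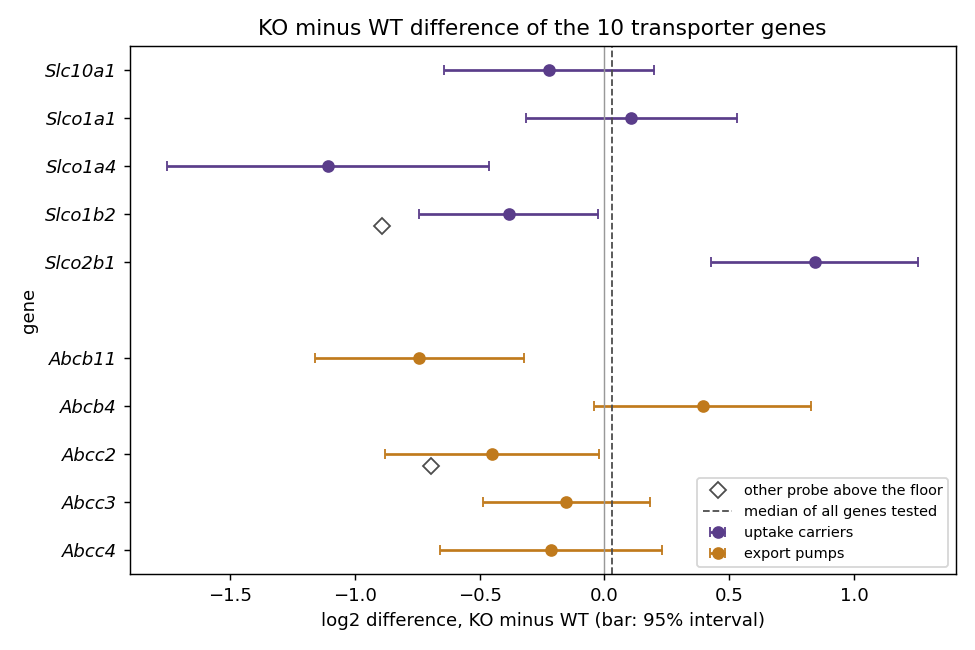
Log2 difference, KO minus WT, with its 95% interval for each transporter gene at its brightest probe (uptake carriers above, export pumps below). Open diamonds are further probes above the floor, and the dashed line is the median of all genes tested, 0.03. Slco1a4, Slco1b2, Abcb11 and Abcc2 have intervals below 0 and Slco2b1 one above 0, and the further probes of Slco1b2 (-0.89) and Abcc2 (-0.69) lie below their brighter ones.

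The uptake and export classes had close median differences with all arrays, but not with arrays left out. The median log2 difference was -0.22 over the 5 uptake carriers, with 3 below 0, and -0.21 over the 5 export pumps, with 4 below 0, beside 0.03 over all genes tested. Without WT replicate 2 the medians were -0.11 for uptake and -0.40 for export, and without WT replicate 1 they were -0.40 and -0.26. Without KO replicate 3 and WT replicate 3 together they were -0.13 and -0.30. The order of the classes thus depended on which arrays were used. The spread within each class was wide, from -1.11 to 0.84 for uptake and from -0.74 to 0.39 for export. For each array, the mean deviation of each class from its WT mean was also taken. For uptake it was -0.02, -0.17, -0.30 and -0.12 in KO and 0.05, 0.00 and -0.05 in WT. For export it was -0.22, -0.18, -0.25 and -0.27 in KO and -0.20, 0.05 and 0.14 in WT. WT replicate 1 thus lay among the KO arrays for export, and KO replicate 1 among the WT arrays for uptake. The uptake score minus the export score was 0.20, 0.02, -0.05 and 0.15 in KO, within the WT values of 0.24, -0.05 and -0.19. Leaving Slco2b1 out, the uptake score was -0.27, -0.36, -0.59 and -0.38 in KO and 0.13, 0.03 and -0.16 in WT. Slco2b1 was chosen for leaving out after its value was seen.

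**Figure D3:**
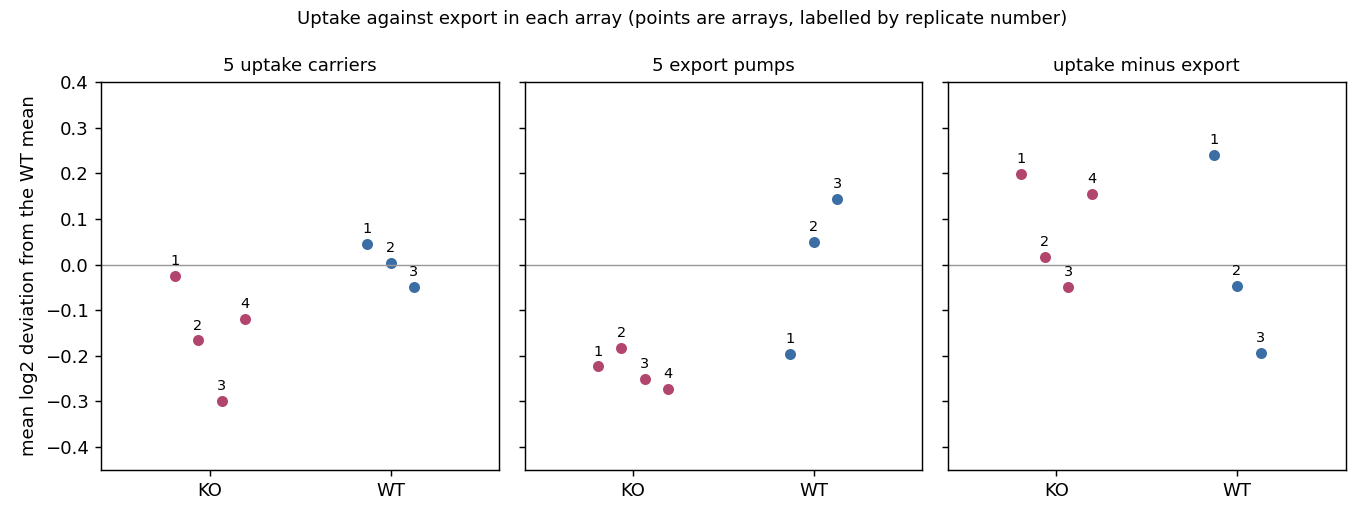
Mean log2 deviation from the WT mean in each array (points, with replicate numbers) for the 5 uptake carriers, the 5 export pumps and the uptake score minus the export score. The uptake-minus-export scores of KO (-0.05 to 0.20) lie within those of WT (-0.19 to 0.24).

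No array was the highest or the lowest for all 10 transporters. WT replicate 1 was the lowest of the 7 arrays for Slco2b1, Abcb4 and Abcc3 and the highest for Slco1a4 and Abcc4. WT replicate 2 was the highest for Slc10a1, Slco1b2, Abcb11 and Abcc3. KO replicate 3 was the lowest for Slco1a1, Slco1a4 and Abcb11. On the log2 scale, the range over the WT arrays was wider than the difference between the groups for every transporter except Slco1b2 and Slco2b1. Over the 7 arrays, KO and WT together, some pairs of transporters followed each other and others ran opposite. Pearson r was 0.90 for Abcb11 and Abcc3, 0.82 for Slc10a1 and Abcc3 and 0.75 for Slco1b2 and Abcb11, against -0.88 for Abcb4 and Abcc4 and -0.85 for Slco1a4 and Slco2b1. For Abcb11, the 5 genes with the most similar pattern over the 7 arrays, by Pearson correlation among 10441 genes, were Rfng, Pank1, Acsf2, Snf8 and Epas1, with r between 0.96 and 0.98. All these r include the difference between the groups and are a description only. The pairs of transporters named are among the larger r over all pairs, and the probes of Slc10a1 and Abcc4 lay close to the floor. Rfng encodes a fringe glycosyltransferase, Pank1 a pantothenate kinase, Acsf2 an acyl-CoA synthetase, Snf8 a subunit of an endosomal sorting complex and Epas1 the hypoxia factor HIF-2 alpha.

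Without both KO replicate 3 and WT replicate 3, the number of genes past the threshold was 567 of 13281, 4.27% of those tested. On the first principal component these were the arrays nearest the other group, so leaving them out sets the groups further apart there. With those arrays left out, Slco2b1 (log2 difference 1.03, adjusted p = 0.018 in limma) and Slco1a4 (-1.30, adjusted p = 0.033) passed, 2 of the 10, and Abcb11 did not (-0.64, adjusted p = 0.13). Weighting the arrays by their estimated quality gave 938 genes past the threshold, 7.06% of those tested. Under those weights Slco2b1 (0.94, adjusted p = 0.015), Abcb11 (-0.83, adjusted p = 0.022) and Slco1a4 (-0.95, adjusted p = 0.039) passed, 3 of the 10. In all 18 other settings 0 of the transporters tested passed.

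**Figure D4:**
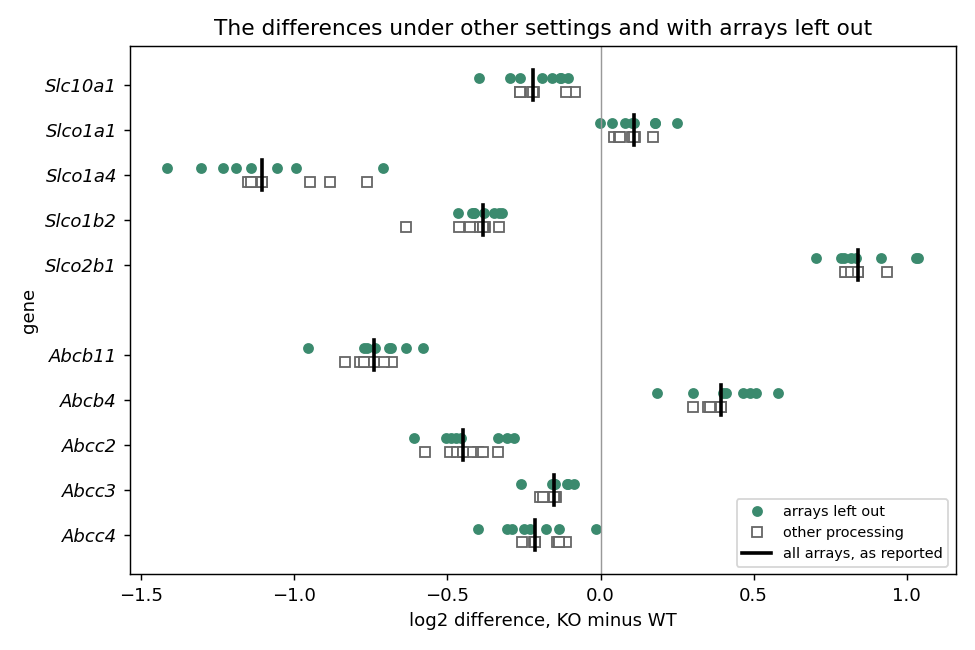
Log2 difference, KO minus WT, of each transporter gene as reported (black bar), with arrays left out (filled circles) and under other processing (open squares). The values of Slco1a4 range from -1.42 to -0.71, those of Abcb11 from -0.96 to -0.58 and those of Slco2b1 from 0.70 to 1.04, and those of Slco1a1 reach 0.

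Further genes of the same system were taken from 6 lists, with 70 of 103 listed genes tested. None passed in limma, 34 lay above 0 and 36 below, and the median was -0.01. At an unadjusted p under 0.05 there were 4 higher and 11 lower in KO, beside 8.2% and 6.48% of all genes tested.

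Of 12 other solute carriers tested, 6 lay above and 6 below 0. Slc22a5, the carnitine carrier, differed by 0.996 (SE 0.24, adjusted p = 0.12), Slc22a18 by -0.52 (SE 0.23) and Slc51b, a subunit of the basolateral bile acid exporter, by 0.36 (SE 0.28). Its partner subunit gene Slc51a and the intestinal-type bile acid carrier gene Slc10a2 were not above the floor. Of 11 further OATP genes only Slco2a1 (0.09, SE 0.22), a prostaglandin carrier, and Slco3a1 (0.00, SE 0.17) were tested. Of 10 genes tested from the list of other exporters, 6 lay below 0, with a median of -0.25. That list also held Abcc9 (-0.36), Tmem30a (-0.34) and Atp8b1, which do not encode ABC exporters, so the median is not one of exporters alone. Abcb6, a porphyrin carrier, differed by -0.82 (SE 0.17, adjusted p = 0.088) and Abcc6, a liver exporter linked to ATP release, by -0.70 (SE 0.16, adjusted p = 0.10). Atp8b1, the aminophospholipid flippase that protects the canalicular membrane, differed by 0.42 (SE 0.17) and Abcg8, part of the sterol exporter, by -0.47 (SE 0.20).

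Among 14 genes of the canalicular scaffold, junctions and vesicle traffic, 8 lay above and 6 below 0. The scaffold genes Slc9a3r1 (-0.57, SE 0.17, adjusted p = 0.17) and Pdzk1 (-0.50, SE 0.21), whose products hold transporters at the membrane, were lower in mean. Of the junction and polarity genes, Cldn1 (1.03, SE 0.22, adjusted p = 0.10) and Tjp1 (0.41, SE 0.18) were higher in mean and Pard3 (-0.46, SE 0.18, adjusted p = 0.27) was lower. Of 16 regulators tested, 9 lay above 0 and the median was 0.09. Nr1h4, the FXR gene, differed by 0.15 (SE 0.24), the xenobiotic receptor gene Nr1i2 by 0.16 (SE 0.21) and the bilirubin- and drug-sensing receptor gene Nr1i3 by 0.09 (SE 0.46). Rxra, the partner of all 3, differed by -0.55 (SE 0.16, adjusted p = 0.15) and Hnf4a by -0.35 (SE 0.20). Nr0b2, the FXR target that encodes SHP, was not above the floor. Among 16 genes of bile acid synthesis and conjugation, 11 lay below 0 with a median of -0.10, including the sterol 12-hydroxylase gene Cyp8b1 (-1.13, SE 0.43, adjusted p = 0.25) and the sulphotransferase gene Sult2a8 (-0.65, SE 0.21, adjusted p = 0.19).

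Markers of other liver cells showed medians of 0.22 over 3 cholangiocyte genes, 0.06 over 11 sinusoidal endothelial genes, 0.00 over 12 stellate cell and fibroblast genes and 0.09 over 6 blood cell genes. None of these genes passed in limma, the smallest p being that of the erythroid gene Alas2 (-0.78, SE 0.16, adjusted p = 0.088). The cholangiocyte markers Krt19, Epcam, Cftr, Cdh6 and Slc5a1 were not above the floor. Their summed intensity over the 3 tested genes was 2554 to 3569.97 in KO and 2036 to 2993 in WT.

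**Figure D5:**
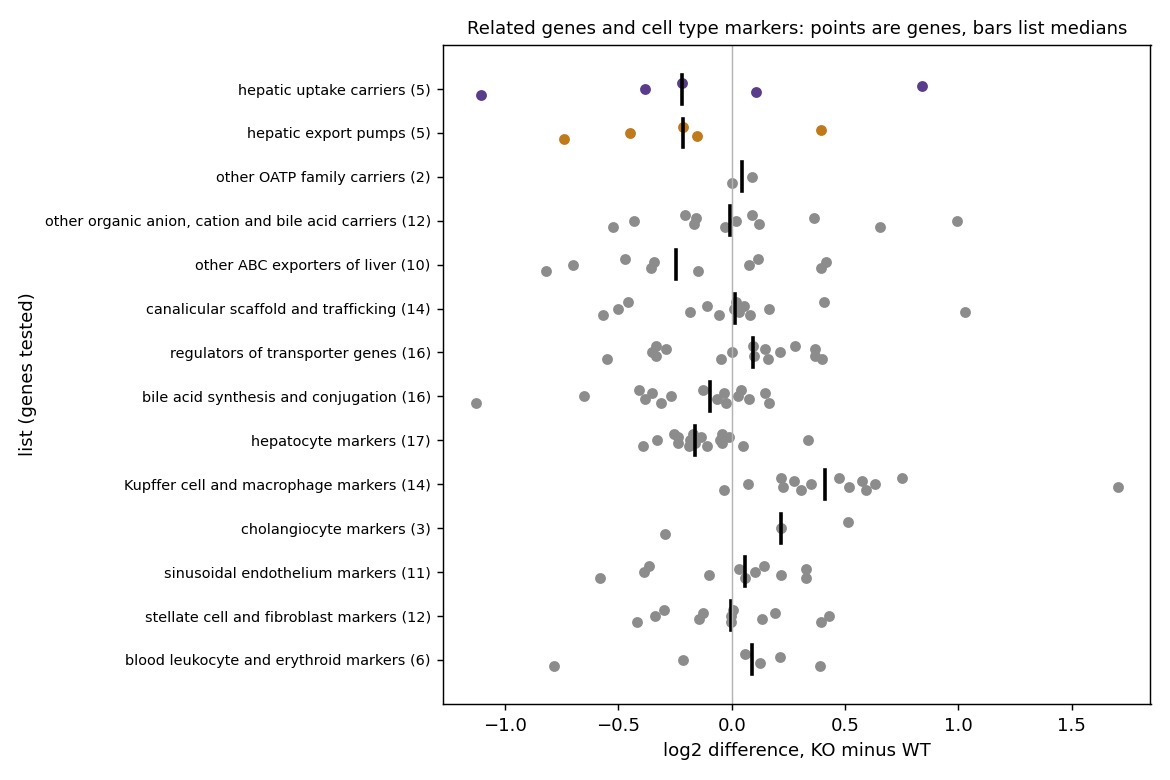
Log2 difference, KO minus WT, of every tested gene in the uptake and export classes, in 6 lists of related genes and in 6 lists of cell type markers (points), with list medians (black bars) and the number of genes tested in brackets. The medians run from -0.25 for the list of other ABC exporters to 0.41 for the Kupffer cell and macrophage markers. Not all genes of that exporter list encode ABC exporters. The medians of uptake and export are -0.22 and -0.21 (-0.11 and -0.40 without WT replicate 2).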

How the data were processed

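The deposited table holds a linear intensity for each probe, normalized between the 7 arrays by the authors: the 7 columns have the same quantiles, and their lowest value shows that background was still in them. Per the submitters' processing notes Partek was used, its version not being given in the sources used here. A scanner table was not used, because its 14 columns carry chip positions that no label ties to a sample. In place of its detection p-values, the floor came from a normal curve centred on the most frequent intensity, with its spread from the values below that centre, as the 0.95 quantile. Intensities were corrected by normexp (offset 16) in limma 3.58.1 (R 4.3.3) and log2-transformed. The filter kept probes that exceeded the floor on 3 or more arrays (18911 of 45281), and the brightest kept probe stood for a gene. The platform annotation gave 1 symbol for 34885 probes, several for 18 and none for 10378. The comparison of KO with WT used lmFit and eBayes, two-sided, and p-values were adjusted by Benjamini-Hochberg over all 13281 genes and unnamed probes. Intervals of 95% use the moderated SE. The labels do not say that each sample came from its own animal, so the p-values reflect only sample-to-sample spread, part of which may be technical. Close paralogs such as the Slco1a genes can share signal, and probe sequences were not used here.

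The transporters and lists were chosen with earlier results of these data known. Genes allowed by the naming rule were the 10 transporters, Ltbr, up to 4 members of smallest p in each list, up to 3 tested neighbours on each side of the chromosome 6 cluster and the 5 genes most like Slc10a1 and Abcb11. Not all are printed. Slc51b, Nr1h4, Nr1i2, Nr1i3, Hnf4a, Tjp1 and the genes not above the floor were named in addition. Alternatives changed the background correction, normalization, filter, choice of probe, prior, array weights and replicate block, and left arrays out. The procedure was also run on simulated data, the outcome of which is not given here.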

Additional observations from a re-analysis of the deposited data

How the results depend on the processing

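Over 20 alternatives, 0 of the transporters tested passed except under array weights and without KO replicate 3 and WT replicate 3 together. The number of genes past the threshold, 9 with all arrays, was 4 without background correction, 19 without a filter, 1 with the floor required on all 7 arrays, 3 with the mean of a gene's probes, 2 with an intensity trend in the prior, 938 with array weights and 567 without KO replicate 3 and WT replicate 3 together. It ran from 2 to 5 with 1 array left out, and was 13 with a floor at the median intensity, chosen after seeing the data. The cause of these shifts was not tested. The median over the uptake carriers, -0.22, was -0.082 without background correction and -0.38 with the floor required on all 7 arrays, which leaves 3 of the 5. It ran from -0.40 (without WT replicate 1) to -0.11 (without WT replicate 2) with 1 array left out. The median over the export pumps, -0.21, ran from -0.40 (without WT replicate 2) to -0.15. With arrays left out singly the sign of 9 of the 10 transporters held, and that of Slco1a1 turned without KO replicate 2, its range being -0.0026 to 0.25. With the replicate number as a block, 3 genes passed, and the medians were -0.26 for uptake and -0.15 for export. Same-numbered KO and WT arrays had deviations that correlated at -0.19, -0.04 and -0.30. These few correlations cannot decide whether the numbers pair the samples. Signal close to the floor limits Slc10a1, Slco1a1 and Abcc4, and the KO intensities of Slco1a4 (132 to 177) were also dim.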
